A study of Mus musculus with 59 samples.

Results

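Mir122, Mir192 and Mir148a are mouse genes of liver microRNAs, and each was followed by its symbol through all 59 libraries of the series. They are 3 of the 55273 features counted in every file and 3 of the 1190 features that RefSeq classes as microRNA genes. Their Ensembl identifiers in the files are ENSMUSG00000065402 (Mir122), ENSMUSG00000065523 (Mir192) and ENSMUSG00000065505 (Mir148a). All 3 had counts in small RNA libraries of liver, plasma and VsWAT, a tissue named here as the labels name it. In mRNA libraries only Mir122 had more than 1 count in any library, and only in liver.

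The series, titled as iTag labelling of RNA from liver, plasma and VsWAT, sequenced pull-down and input RNA of male mice aged 12 weeks after 2 weeks on a high-fat or a low-fat control diet. All animals, controls included, were of an FVB.129P2 strain with Cyp3a13tm1Ahs, Del(5Cyp3a57-Cyp3a59)1Ahs and Tg(APOE-CYP3A4)A1Ahs, which lacks a set of mouse Cyp3a genes and carries human CYP3A4 under an APOE promoter. Liver small RNA had 3 high-fat and 2 low-fat pull-down libraries and 3 input libraries per diet, VsWAT small RNA had 3 libraries in each of the same 4 groups, and plasma small RNA had 2 in each. Liver mRNA had 3 libraries per group, kidney mRNA had 3 high-fat and 2 low-fat libraries in each fraction, and VsWAT total RNA had 3 per diet. The labels give neither the way the pull-down was made nor whether each library is another animal. The p-values here therefore cover the spread among libraries, part or all of which may be technical.

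Library totals were 573697 to 3338652 counts in liver small RNA pull-down and 875970 to 3608065 in its input, 1867345 to 2580104 and 881578 to 2220123 in VsWAT, and 221875 to 646964 and 327144 to 828030 in plasma. They were 3389320 to 4426392 in liver mRNA pull-down and 3033702 to 4942158 in its input. Liver libraries carried hepatocyte markers (Alb, Apoa1, Ttr, Fgb and Serpina1c summed to between 30160 and 40490 CPM, counts scaled to a library total of 1000000, in small RNA pull-down and between 22450 and 48820 in input). VsWAT libraries carried the adipocyte markers Adipoq, Fabp4, Plin1, Lep and Cidec (13720 to 20290 CPM in pull-down and 5994 to 7767 in input). Mir6236, Mir6239 and Mir6240 held 71.3% to 92.6% of the microRNA gene counts in liver pull-down and 77.1% to 90.8% in liver input, so scalings and shares were also computed without them, a choice made after seeing the data. Mir451a, Mir126a, Mir142 and Mir223, abundant microRNAs of blood and endothelium, were listed at 0 in all 59 libraries, so the counts are not a full census of microRNAs.

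A microRNA gene is transcribed as a long primary transcript, from which Drosha and Dgcr8 cut a hairpin. Exportin 5 (Xpo5) carries the hairpin out of the nucleus, Dicer1 cuts it to a short duplex, and 1 strand is loaded into an Argonaute protein, where its seed, bases 2 to 8, pairs with target mRNAs. miR-122 is the dominant microRNA of hepatocytes, acts in cholesterol and lipid metabolism, and is used as a plasma marker of liver injury. miR-192 is made with miR-194 from a cluster active in liver, kidney and intestine, and miR-148a is abundant in liver and is also made in adipose tissue.

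The mature sequences of the miR-192 and miR-148a families show why their counts are read gene by gene, because members share a seed and differ at few bases. They are from RefSeq on GRCm38.p6, written 5′ to 3′ with the seed in capitals.
miR-192-5p: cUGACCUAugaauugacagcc
miR-215-5p: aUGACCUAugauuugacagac
miR-194-5p: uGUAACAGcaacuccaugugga
miR-148a-3p: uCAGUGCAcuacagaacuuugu
miR-148b-3p: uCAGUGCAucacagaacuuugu
miR-152-3p: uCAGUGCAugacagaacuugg

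miR-192-5p and miR-215-5p have the same seed and differ at 3 positions, C1A, A12U and C20A, counted from 1 at the 5′ end with the base of miR-192-5p first. miR-148a-3p differs from miR-148b-3p at C9U and U10C and, over the 21 bases they share, from miR-152-3p at C9U, U10G and U20G. miR-194-5p, the cluster partner of miR-192, has a seed of its own. Mir192 spans 89 bases at chr19:6264844-6264932 on the plus strand, and Mir148a spans 99 bases at chr6:51269812-51269910 on the minus strand. Their hairpins, with both mature arms in capitals, are shown because a gene's count takes any read over this locus, mature or precursor.
Mir192 hairpin: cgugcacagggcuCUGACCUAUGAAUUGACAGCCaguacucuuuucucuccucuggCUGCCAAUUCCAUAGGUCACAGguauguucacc
Mir148a hairpin: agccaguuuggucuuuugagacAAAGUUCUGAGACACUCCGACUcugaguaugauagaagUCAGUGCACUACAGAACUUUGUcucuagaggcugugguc

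In liver small RNA, Mir122 was the second most counted microRNA gene after Mir6236 in every library, and the most counted once Mir6236, Mir6239 and Mir6240 were left out. Its raw counts were 3589, 1267 and 428 in high-fat pull-down, 2551 and 1589 in low-fat pull-down, 1730, 3315 and 6822 in high-fat input and 5435, 8837 and 3680 in low-fat input. In CPM this was 1075, 673.6 and 746 CPM in high-fat and 1164 and 1240 CPM in low-fat pull-down, against 1961, 2766 and 5934 CPM in high-fat and 4780, 2449 and 4201 CPM in low-fat input. All 5 pull-down libraries lay below all 6 input libraries, with means of 979.8 ± 254.7 CPM in pull-down (SD, n = 5) and 3682 ± 1541 CPM in input (SD, n = 6).

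Mir192 followed at a much lower level and in the same order of fractions. It had 52, 25 and 7 counts in high-fat and 38 and 19 in low-fat pull-down, against 41, 64 and 157 in high-fat and 126, 271 and 101 in low-fat input. The means were 14.7 ± 2.00 CPM in pull-down (SD, n = 5) and 89.6 ± 36.6 CPM in input (SD, n = 6), with the highest pull-down library at 17.3 CPM and the lowest input library at 46.5 CPM. Among microRNA genes Mir192 ranked 5 to 8 in pull-down and 4 to 8 in input.

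Mir148a was nearly absent from liver pull-down. It had 3, 0 and 1 counts in high-fat and 3 and 0 in low-fat pull-down, against 16, 37 and 59 in high-fat and 45, 91 and 43 in low-fat input. The means were 0.802 ± 0.791 CPM in pull-down (SD, n = 5) and 35.7 ± 13.3 CPM in input (SD, n = 6). Every input library held more counts of Mir148a than all 5 pull-down libraries together, which held 7.

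**Figure D1:**
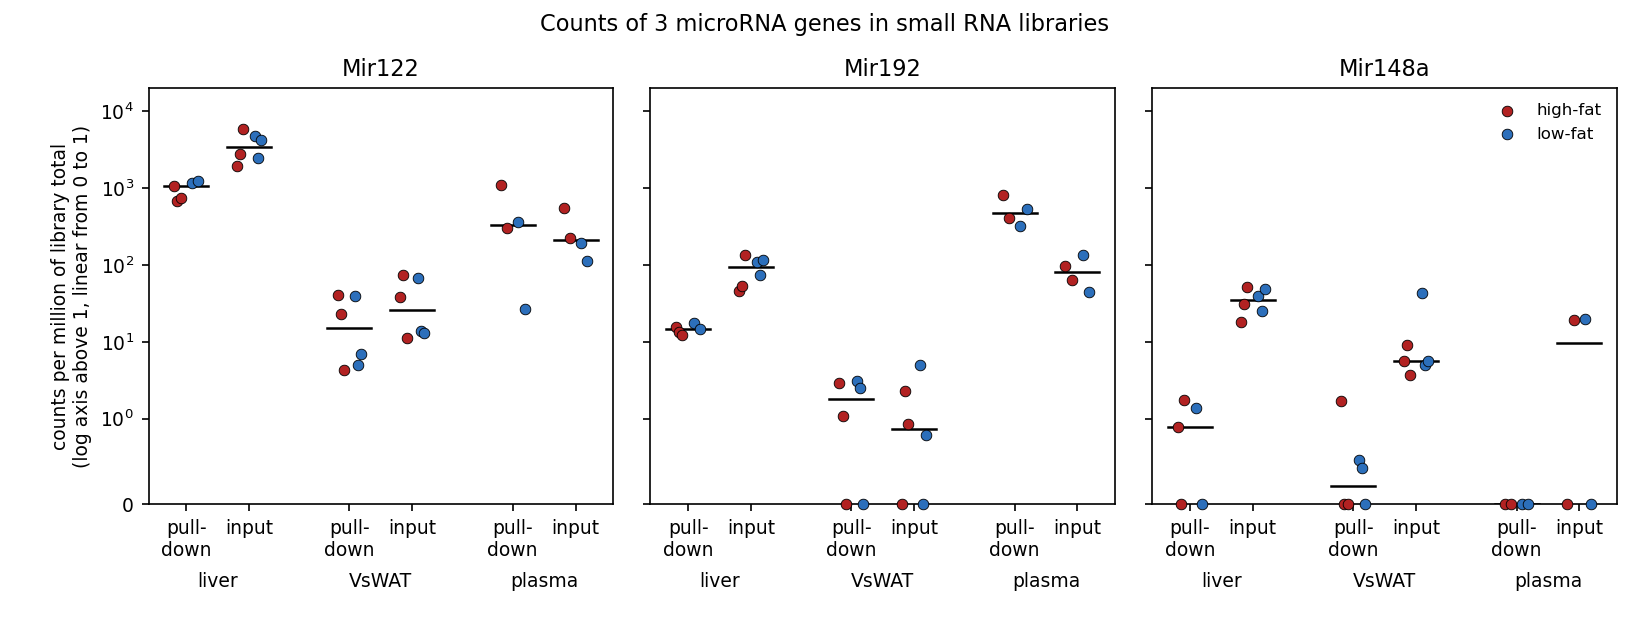
CPM of the library total for Mir122, Mir192 and Mir148a in small RNA libraries, pull-down left of input in liver, VsWAT and plasma, on an axis that is logarithmic above 1 and linear from 0 to 1. Each point is 1 library, red for high-fat and blue for low-fat, and each bar is the median of a fraction. Per library total, all 3 genes lie lower in pull-down than in input in liver, in plasma Mir192 lies higher in pull-down, and Mir148a is at 0 in all 4 plasma pull-down libraries.

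The first comparison asked how far the pull-down changed each microRNA gene relative to the rest of the liver small RNA library. With TMM scaling all 3 genes fell in pull-down by edgeR's quasi-likelihood test, a direction that turned for Mir122 in 1 of the microRNA scalings given next. The test was adjusted over 8401 features, of which 55.4% were called in this comparison and 28.3% were called lower. The log2 fold change was −3.11 ± 0.39 (SE) for Mir122 (adjusted p = 1.016e-05), −3.78 ± 0.37 for Mir192 (adjusted p = 9.027e-07) and −6.57 ± 0.53 for Mir148a (adjusted p = 1.243e-07). The fall was called on each diet alone, at −3.36 ± 0.50 on high fat and −2.86 ± 0.58 on low fat for Mir122, where 28.2% and 43.5% of features were called.

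How large these falls were, and for Mir122 their direction, depended on what the counts were scaled to. With library totals alone the log2 changes were −1.87, −2.54 and −5.39 for Mir122, Mir192 and Mir148a, while the median over all tested features stood at 1.23, against 0.10 with TMM scaling. Set against other microRNA genes alone, Mir122 differed by −0.019 (adjusted p = 0.905), Mir192 by −0.72 (adjusted p = 8.26e-04) and Mir148a by −3.69 (adjusted p = 4.75e-05). Without Mir6236, Mir6239 and Mir6240 among them, Mir122 was higher in pull-down by 0.63 (adjusted p = 7.01e-05), Mir192 differed by −0.066 (adjusted p = 0.658) and Mir148a was lower, at −3.04 (adjusted p = 1.75e-05). Mir148a was therefore lower in pull-down under each of these scalings, Mir192 under all but the last, and Mir122 in the 2 that scale to the whole library.

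**Figure D2:**
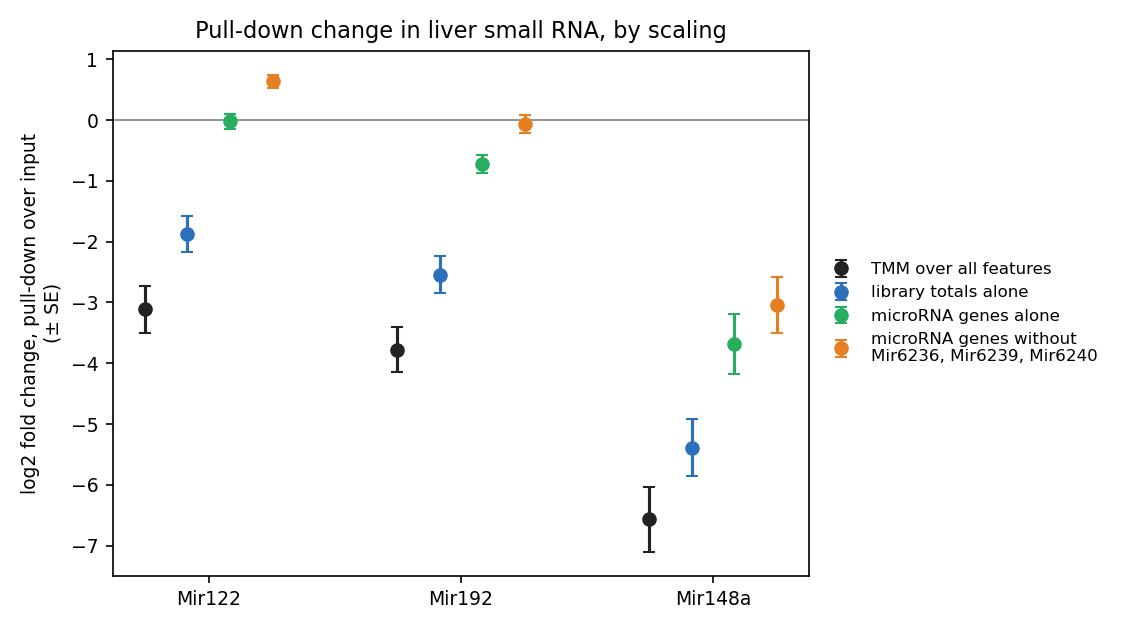
Log2 fold change of pull-down over input in liver small RNA for the 3 genes, with bars of 1 SE, under 4 scalings: TMM over all features, library totals alone, microRNA genes alone, and microRNA genes without Mir6236, Mir6239 and Mir6240. Mir148a stays below 0 in all 4, while Mir122 lies at −3.11 in the first and at 0.63 in the last.

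Shares of the microRNA counts need no scaling factor. With Mir6236, Mir6239 and Mir6240 left out of the total, Mir122 took 80.6% ± 2.33 of the microRNA counts in pull-down (SD, n = 5) and 72.4% ± 2.19 in input (SD, n = 6), with no overlap between libraries (exact permutation test, two-sided, p = 0.004329, adjusted p = 0.026 over 18 shares). Mir192 took 1.24% ± 0.196 in pull-down and 1.78% ± 0.256 in input (exact permutation test, adjusted p = 0.039), and Mir148a 0.0695% ± 0.0763 and 0.715% ± 0.0935 (exact permutation test, adjusted p = 0.026). Because Mir122 makes up most of this total, its higher share lowers the others. With Mir122 left out as well, a choice made after seeing the data, Mir192 took 6.39% ± 0.466 in pull-down and 6.45% ± 0.879 in input (exact permutation test, adjusted p = 1 over 12 shares), and Mir148a 0.350% ± 0.362 and 2.602% ± 0.348 (exact permutation test, adjusted p = 0.026). With those 3 genes kept in the total, none of the 18 shares passed (lowest adjusted p = 0.0779, exact permutation test, for Mir148a in liver), and Mir122 took 5.80% to 23.5% in pull-down and 6.87% to 16.8% in input.

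The ratio of 2 microRNAs within a library needs no total at all. These ratios were chosen after the values were seen, as a family of 12 comparisons. Liver pull-down held 15.5 ± 2.85 counts of Mir192 per 1000 counts of Mir122 (SD, n = 5), and liver input 24.6 ± 3.96 (SD, n = 6; exact permutation test, two-sided, adjusted p = 0.0163). For Mir148a it was 0.870 ± 0.969 in pull-down and 9.89 ± 1.38 in input per 1000 counts of Mir122 (exact permutation test, adjusted p = 0.0163). Relative to Mir122, liver pull-down thus held less Mir192 and less Mir148a.

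In VsWAT Mir148a again fell in pull-down. Mir148a had 4, 0 and 0 counts in high-fat and 1, 1 and 0 in low-fat pull-down, against 8, 8 and 4 in high-fat and 97, 6 and 7 in low-fat input. Its log2 change was −5.01 ± 0.80 (SE, edgeR adjusted p = 1.63e-04), among 11339 tested features of which 43.9% were called. The highest pull-down library, with 4 counts, matched the lowest input library in count but not in CPM, since 1.67 lay below 3.75. Low-fat input 1, with 97 of the 130 input counts, stood apart from the others, and the fall was called with each library left out in turn (log2 −6.52 to −4.11). MicroRNA genes as a whole took 0.195% to 0.595% of VsWAT pull-down counts and 1.33% to 1.88% of input counts. The share of Mir148a among microRNA counts was not called (exact permutation test, adjusted p = 0.171). Without Mir6236, Mir6239 and Mir6240 it was lower in pull-down and called (exact permutation test, adjusted p = 0.026).

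Mir122 had 97, 43 and 9 counts in high-fat and 76, 12 and 18 in low-fat VsWAT pull-down, against 54, 65 and 12 in high-fat and 152, 17 and 16 in low-fat input. Its pull-down change of −1.5 ± 0.61 missed the threshold (edgeR adjusted p = 0.057), passed it with the replicate block (−1.52, adjusted p = 1.81e-04; the numbers met the pairing threshold on low fat but not on high fat), and had the other sign when set against microRNA genes alone (1.01, adjusted p = 0.145). It also passed without high-fat pull-down 1 (−1.93), low-fat pull-down 1 (−2.19), high-fat input 3 (−1.70) or low-fat input 2 (−1.67). Mir192 had 0 to 7 counts in VsWAT pull-down and 0 to 11 in input, did not pass the filter on low counts, and was not tested there.

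Mir122 in VsWAT ran beside reads of Alb, the gene of the main protein that hepatocytes secrete. The VsWAT libraries high-fat 1, high-fat 2 and low-fat 1 had 2165, 2048 and 1284 Alb counts in pull-down and 902, 788 and 2360 in input, while the other 3 had 77, 224 and 258 in pull-down and 115, 174 and 322 in input. Libraries with these same 3 labels had the most Mir122 in each fraction, though the numbers did not meet the pairing threshold on high fat. High-fat inputs 1 and 2 differed little from each other, with a chi-square per degree of freedom of 1.53. The other VsWAT input pairs within a diet had 8.03 to 9.43, so those 2 inputs may not be independent. Per 100 Alb counts, VsWAT held 2.10 to 11.7 counts of Mir122 in pull-down and 4.97 to 10.4 in input. Liver held 2.24 to 4.03 in pull-down and 6.59 to 33.95 in input. In pull-down VsWAT high-fat 2 lay just below the liver range, at 2.10, and the other VsWAT libraries lay above it. Of these, high-fat 3, low-fat 2 and low-fat 3 rest on 9, 12 and 18 counts of Mir122. Part of the VsWAT input libraries lay below the liver input range and the rest within it. The summed hepatocyte markers, all 5 detected, ran from 41.1 to 1412 CPM in VsWAT pull-down and from 144.2 to 1284 CPM in input, and their part in the VsWAT Mir122 counts was not tested.

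**Figure D3:**
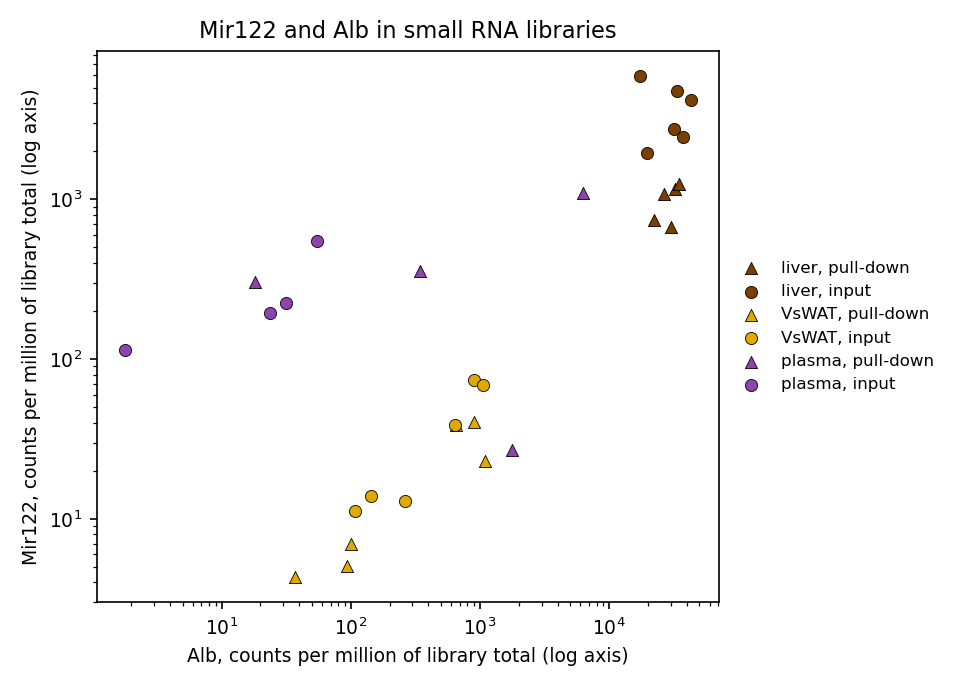
Mir122 against Alb, both in CPM of the library total on log axes, in small RNA libraries of liver, VsWAT and plasma, with triangles for pull-down and circles for input. VsWAT points lie below liver points on both axes, with 2.10 to 11.7 Mir122 counts per 100 Alb counts in pull-down. The 4 plasma input points lie left of all liver points and all VsWAT input points, at 719.2 to 6300 Mir122 counts per 100 Alb counts. Plasma pull-down high-fat 2, at 1683, lies within that range.

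In plasma, Mir192 was the member with the clearest separation between fractions. It had 522 and 135 counts in high-fat and 75 and 119 in low-fat pull-down, against 32 and 53 in high-fat and 67 and 25 in low-fat input. In CPM this was 806.8, 407.5, 324.0 and 536.3 CPM in pull-down and 97.8, 64.0, 133.4 and 45.0 CPM in input, so the lowest pull-down library lay above the highest input library. Its share of all microRNA counts was 2.48% ± 0.981 in pull-down and 0.517% ± 0.120 in input (SD, n = 4 each), with an exact permutation p of 0.02857, the smallest that 4 libraries against 4 allow, and an adjusted p of 0.171.

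The edgeR fit called neither gene in plasma pull-down, where 0.49% of 3469 tested features were called. Mir192 changed by 0.47 ± 0.96 (adjusted p = 0.84) with TMM scaling and by 2.73 with library totals alone (adjusted p = 0.138), where the median over all features was 2.11. Mir122 changed by −1.43 ± 1.00 (adjusted p = 0.47) with TMM and by 0.79 with library totals, so neither size nor direction was fixed.

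Mir122 counts in plasma were uneven, at 712 and 101 in high-fat and 83 and 6 in low-fat pull-down, against 179 and 187 in high-fat and 97 and 63 in low-fat input. Low-fat pull-down 2, with 6 counts or 27.04 CPM, was the lowest of the 8 libraries and held 119 counts of Mir192. Plasma held 733.1 to 19830 counts of Mir192 per 1000 counts of Mir122 in pull-down and 178.8 to 690.7 in input (exact permutation test, adjusted p = 0.0429). Leaving out any 1 of the 8 libraries ends that call, since 3 against 4 cannot reach the threshold. Without low-fat pull-down 2 the difference of means was 603.7, against 5314 with it. Mir148a had no count in any plasma pull-down library, which allows up to 2.10 CPM over their 1431590 counts, and 0 and 16 counts in high-fat and 10 and 0 in low-fat input.

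In plasma pull-down, Alb and Mir122 did not run in the same order, while in plasma input the 4 libraries had the same order for both in CPM. Plasma pull-down had 4063 and 6 Alb counts in high-fat and 80 and 392 in low-fat libraries, against 18 and 26 in high-fat and 12 and 1 in low-fat input. Erythroid markers (Hba-a1, Hbb-bs, Alas2, Mir451a and Mir144, with Mir451a at 0) summed to between 11660 and 26350 CPM in plasma pull-down and between 20050 and 42350 CPM in input. The part of blood cells in the plasma values was not tested.

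**Figure D4:**
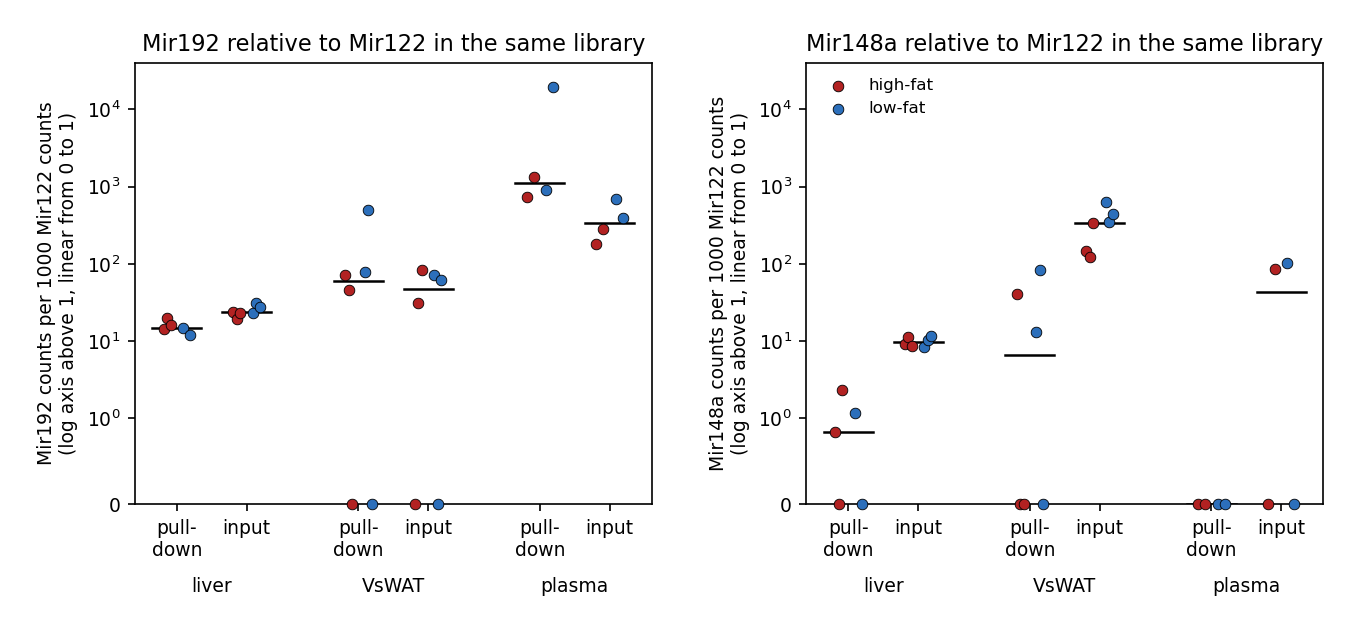
Counts of Mir192 (left) and Mir148a (right) per 1000 counts of Mir122 in the same small RNA library, pull-down left of input in liver, VsWAT and plasma, on an axis that is logarithmic above 1 and linear from 0 to 1. Each point is 1 library, red for high-fat and blue for low-fat, and each bar is a median. The plasma Mir192 points, at 733.1 to 19830 in pull-down and 178.8 to 690.7 in input, lie above the liver points at 24.6 on average in input.

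The tissues were then compared in 1 model of all small RNA libraries, on input alone. Liver exceeded VsWAT for each gene, by log2 7.61 ± 0.83 for Mir122 (edgeR adjusted p = 5.395e-08), 6.78 ± 0.74 for Mir192 (adjusted p = 5.42e-08) and 2.64 ± 0.65 for Mir148a (adjusted p = 0.00233), where 36% of 12352 tested features were called. In bulk tissue, fewer cells of a type and less RNA per cell cannot be told apart. The input means were 3682 ± 1541 CPM in liver and 36.5 ± 28.7 CPM in VsWAT for Mir122 (SD, n = 6 each), 89.6 ± 36.6 and 1.5 ± 1.89 CPM for Mir192, and 35.7 ± 13.3 and 12.1 ± 15.6 CPM for Mir148a.

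Plasma input stood between the tissues for Mir122 and near liver for Mir192. Mir122 averaged 269.9 ± 190.8 CPM in plasma input (SD, n = 4), which was lower than liver by log2 −3.15 ± 0.80 (edgeR adjusted p = 0.00327, with 33.1% of features called and a median over all features of −0.47) and higher than VsWAT by 4.47 ± 0.75 (adjusted p = 1.02e-04, with 17.5% called and a median of −0.63). Mir192 averaged 85.1 ± 38.95 CPM in plasma input and differed from liver by 0.78 ± 0.59 (adjusted p = 0.33), while it exceeded VsWAT by 7.55 ± 0.78 (adjusted p = 8.08e-08). Set against microRNA genes alone, Mir192 was lower in plasma than in liver by a log2 change of −1.54 (adjusted p = 0.043). Mir148a averaged 9.81 ± 11.3 CPM in plasma input and was not called against liver (−0.82 ± 0.80, adjusted p = 0.46), though it was against microRNA genes alone (−3.07) and without plasma low-fat input 1 (−5.16). Against VsWAT it was at 1.81 ± 0.85 (adjusted p = 0.15), with the sign turned to −0.60 against microRNA genes alone. That value was −2.77 without plasma high-fat input 2, −2.54 without plasma low-fat input 1, and 2.70 and called without VsWAT low-fat input 1.

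The order of input levels was thus liver, plasma, VsWAT for Mir122, with each neighbour called. For Mir192 liver and plasma were not called apart with TMM scaling, though they were against microRNA genes alone, and VsWAT lay below both. For Mir148a only liver and VsWAT were called apart with TMM scaling and every library kept. Within libraries, plasma input held 387.4 ± 220.9 counts of Mir192 per 1000 counts of Mir122 and liver input 24.6 ± 3.96 (exact permutation test, n = 4 and 6, adjusted p = 0.0163). Mir148a stood at 9.89 ± 1.38 per 1000 counts of Mir122 in liver input and at 338.9 ± 191 in VsWAT input (exact permutation test, adjusted p = 0.013), so Mir148a stood higher relative to Mir122 in VsWAT.

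The pull-down change itself was compared between tissues in the same model. For Mir192 it was higher in plasma than in liver by log2 3.28 ± 0.89 (edgeR adjusted p = 0.00487), in a comparison that called 36.8% of features and whose median over all features was −2.54. Set against microRNA genes alone the difference was 1.56 (adjusted p = 0.303). For Mir122 the same difference was 0.65 ± 1.02 (adjusted p = 0.80), and between liver and VsWAT none of the 3 genes was called (0.47% of features were, with −3.15, adjusted p = 0.21, for Mir192).

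The 2 weeks of diet gave no called difference for any of the 3 genes in small RNA, in either fraction of any tissue where they passed the filter. In liver input the high-fat change was 0.13 ± 0.46 for Mir122 (edgeR adjusted p = 0.98), −0.09 ± 0.41 for Mir192 (adjusted p = 0.98) and 0.08 ± 0.44 for Mir148a (adjusted p = 0.99), where 0.202% of 8401 features were called. In liver pull-down it was −0.38 ± 0.51 for Mir122 (adjusted p = 0.89), with 0.0357% of features called. In VsWAT input Mir122 changed by 0.18 ± 0.84 (adjusted p = 1.0) and Mir148a by −1.71 ± 0.82 (adjusted p = 1.0), with 0.0794% called, and without low-fat input 1 the Mir148a value was 0.085. In VsWAT pull-down, with 0.406% called, Mir122 changed by 0.47 ± 0.86 (adjusted p = 0.89). In plasma, where 0% of features were called in either fraction, Mir122 in input changed by 1.45 ± 1.42 and Mir192 by −0.05 ± 1.36. With SEs of this size large changes can go uncalled, so the misses do not show that diet had no effect.

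In liver mRNA libraries Mir122 behaved otherwise, and low-fat input stood out with almost no counts. Mir122 had 325, 462 and 468 counts in high-fat pull-down and 170, 212 and 256 in low-fat pull-down, against 132, 111 and 238 in high-fat input and 9, 3 and 5 in low-fat input. The means were 115.7 ± 36.6 CPM in high-fat pull-down, 59.5 ± 10.3 in low-fat pull-down, 38.4 ± 9.98 in high-fat input and 1.67 ± 1.17 in low-fat input (SD, n = 3 each). No 2 of the 4 groups overlapped. Reads over this locus may come from the primary transcript, the hairpin or the mature microRNA, and the counts do not tell them apart.

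Mir122 rose in pull-down by log2 3.16 ± 0.28 over both diets (edgeR adjusted p = 5.874e-07), where 73.8% of 10865 tested features were called and 37.7% were called higher. The rise was 1.26 ± 0.31 on high fat (adjusted p = 0.00346, with 63% of features called) and 5.07 ± 0.45 on low fat (adjusted p = 2.158e-06, with 61.5% called). The sign was thus opposite to that in liver small RNA, where pull-down held less Mir122 than input when both were scaled to the whole library, and the 2 library kinds were not tested against each other.

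On high fat, Mir122 in liver mRNA input was higher than on low fat by log2 4.63 ± 0.46 (edgeR adjusted p = 3.598e-05), in a comparison that called 22.5% of features. High-fat inputs 1 and 3 and low-fat inputs 2 and 3 differed little beyond counting noise (chi-square per degree of freedom 1.18 and 1.13). Fewer than 3 independent libraries per diet may therefore stand behind this value and behind the input diet changes of the listed genes below. The same holds for the input side of the liver mRNA pull-down tests and of the liver against kidney test. In pull-down the diet difference was 0.82 ± 0.30 and missed the threshold (adjusted p = 0.147, with 5.95% called), though fits to the groups compared alone and with no filter called it (0.82 in both, adjusted p = 0.00261 and 0.00218). The pull-down diet change was lower than that of input by −3.80 ± 0.57 (adjusted p = 0.0154, with 2.7% called). That difference was not called with the replicate block (−3.83, adjusted p = 0.128), nor with the 2 closest pairs of input libraries summed, an alternative planned for 1 comparison and extended after seeing the data (−3.70, adjusted p = 0.117), nor without high-fat pull-down 1, high-fat pull-down 2 or low-fat pull-down 3 (−3.55, −3.94 and −3.66).

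Other values of the liver mRNA libraries moved with part of this pattern. The other microRNA genes, without Mir6236, Mir6239 and Mir6240, together had 256, 216 and 204 counts in high-fat and 168, 169 and 196 in low-fat pull-down, and 195, 249 and 253 in high-fat and 263, 175 and 141 in low-fat input. Low-fat inputs 2 and 3 thus held the fewest of the input libraries. Low-fat input 1, with only 9 counts of Mir122, held the most. The let-7 genes had 10, 15 and 13 counts in high-fat and 3, 11 and 7 in low-fat pull-down, and 6, 13 and 26 in high-fat against 3, 0 and 0 in low-fat input. Mitochondrial tRNA genes took 0.184%, 0.265% and 0.217% of counts in high-fat input and 0.394%, 0.0572% and 0.0614% in low-fat input. Here too low-fat input 1 was the highest input library and low-fat inputs 2 and 3 the lowest. Low-fat inputs 2 and 3 were also very alike, with a chi-square per degree of freedom of 1.13 over features, as were high-fat inputs 1 and 3 with 1.18. The part of short-RNA recovery in the Mir122 difference was not tested.

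**Figure D5:**
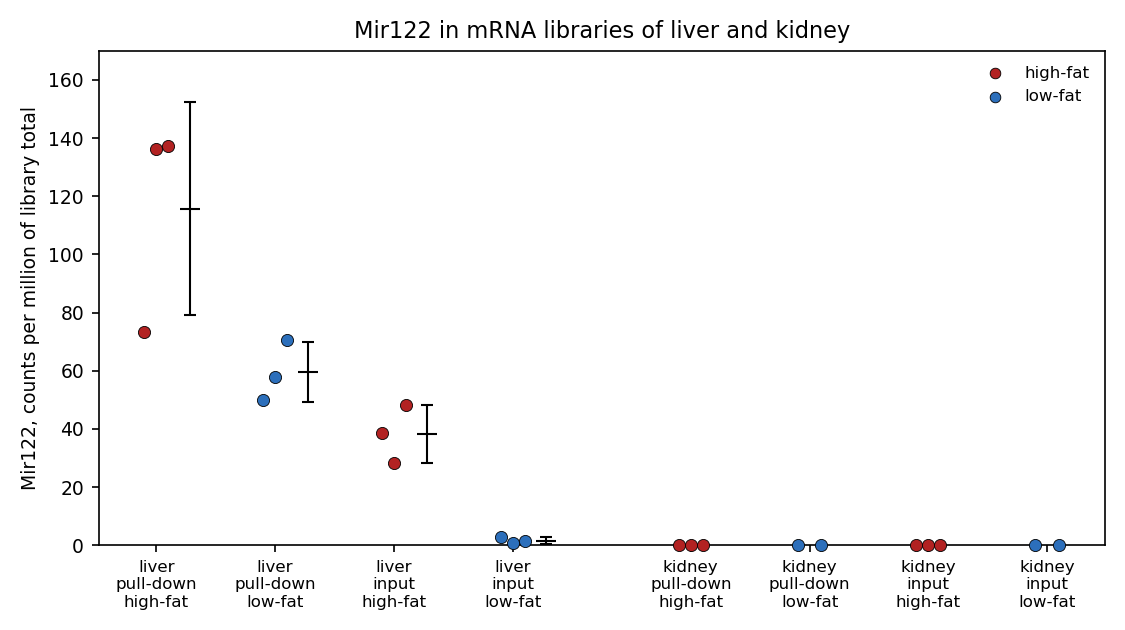
Mir122 in CPM of the library total in mRNA libraries, by tissue, fraction and diet, with each point 1 library (red high-fat, blue low-fat) and bars giving the mean ± SD. Liver groups average 115.7 and 59.5 in pull-down and 38.4 and 1.67 in input, high-fat first, and all 10 kidney libraries are at 0.

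Kidney mRNA gave no count of Mir122 in any of its 10 libraries. Summed over libraries, liver pull-down was at least 929.5-fold higher than kidney pull-down (86.4 CPM against a floor of 0.0930 CPM, 3 counts over the group), and liver input at least 484.1-fold higher than kidney input (21.3 CPM against 0.0440 CPM). By diet the input bound was 889.8-fold on high fat and 34.8-fold on low fat, where liver held 17 counts, and it was 320.5-fold without high-fat input 3. Liver input was called above kidney input (edgeR adjusted p = 1.27e-08, with 62.9% of features called). Kidney libraries carried tubule markers (Lrp2, Slc34a1, Umod, Aqp2 and Slc12a1 at 5291 to 7539 CPM in pull-down and 7858 to 9949 in input), and their hepatocyte markers summed to between 1.09 and 10.2 CPM in pull-down and between 3.41 and 7.16 in input.

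Mir192 and Mir148a were barely seen in mRNA libraries. Mir192 had 1 count in liver input high-fat 3 and 1 in kidney input low-fat 2, and Mir148a had 1 in liver pull-down high-fat 2. In VsWAT total RNA, Mir122 had 8, 10 and 2 counts on high fat and 22, 1 and 10 on low fat, Mir192 had 0, 2 and 0 and 0, 1 and 0, and Mir148a had 0, 0 and 0 and 1, 0 and 3. None of the 3 passed the filter there.

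The seed and cluster relatives of Mir192 were followed in the same libraries. Mir215, which shares the seed of miR-192, was listed at 0 in all 59 libraries. Mir451a, Mir126a, Mir142 and Mir223 were too, so this 0 does not show which of Mir192 and Mir215 carried the counts. Mir194-2, which lies 116 bases from Mir192, had 17 counts in liver pull-down and 48 in liver input, none in the 12 VsWAT libraries, and 18 in 1 plasma pull-down library and 1 in plasma input. Liver input exceeded VsWAT input at least 14.5-fold for Mir194-2 (edgeR adjusted p = 8.27e-04). Mir194-1, whose mature sequence is the same, had 0 counts in liver pull-down and 2 in input, 5 in 1 plasma pull-down library, and 2 over kidney mRNA input. Since the handling of reads with several matches is not given, the split between both Mir194 genes is uncertain.

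In the miR-148 family the fall in pull-down, scaled to the whole library, extended to the relatives in VsWAT. MicroRNA genes as a whole also took a smaller part of the counts there, and the relatives were not set against them. Mir148b had no count in VsWAT pull-down and 66 in input, at least 36.4-fold lower (edgeR adjusted p = 1.34e-04). Low-fat input 1 held 36 of the 66, and without it the bound was 22.9-fold. Mir152 had 17 counts in pull-down, 15 of them in high-fat 1, and 148 in input, 95 of them in low-fat 1 (log2 −4.45 ± 0.80, adjusted p = 4.53e-04). Its change was −6.85 without high-fat pull-down 1 and −3.94 without low-fat input 1. In liver Mir148b had 3 counts in pull-down and 37 in input, and Mir152 had 2 and 50, both under the filter. In plasma Mir148b had 23 counts in 1 pull-down library and 20 over input, and Mir152 had 0 and 22. Liver and VsWAT input were not called apart for Mir152 (−0.29 ± 0.73, SE, edgeR adjusted p = 0.81) or Mir148b (0.14 ± 0.82, adjusted p = 0.93). Their input means were 5.99 CPM in liver and 14.8 CPM in VsWAT for Mir152, and 4.45 and 7.30 CPM for Mir148b. Neither was tested against Mir148a.

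Genes within 20 kb of the members were followed in liver small RNA. Atg2a, an autophagy gene 2540 bases from Mir192, had 7 to 73 counts in liver pull-down, against 7 to 52 for Mir192 itself, and 3 to 69 in input, against 41 to 271 for Mir192. Ehd1, an endocytic trafficking gene 11964 bases away, had 2 to 27 in pull-down and 4 to 40 in input, and the lncRNA gene Gm14963 had at most 3 and 4. Alpk2, a kinase gene near Mir122, had at most 1 count in any liver library, and the lncRNA gene Gm32479 near Mir148a had none in liver small RNA. Both RefSeq genes that overlap a member, Mir122b and Gm38821, are not among the features of the files.

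The genes most like each member were taken by the Pearson correlation of group means of log2 CPM over the 12 small RNA groups, which share depth and tissue composition, and are given as a description. For Mir122 the nearest microRNA genes were Mir192 (r = 0.697), Mir6236 (0.679) and Mir194-2 (0.663), and the nearest others Car8 (0.938), Habp4 (0.933) and D17Wsu92e (0.930). For Mir192 they were Mirlet7f-2 (0.835), Mir5100 (0.818) and Mirlet7g (0.793), and Mroh6 (0.943), Tlx3 (0.894) and Wtap (0.893). For Mir148a they were Mir339 (0.965), Mir744 (0.943) and Mir6236 (0.896), and Scarna3b (0.970), Gm22676 (0.969) and Gm25541 (0.961). No member was among the 3 nearest microRNA genes of Mir148a.

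The genes around these microRNAs were followed in liver mRNA by 5 lists. Of 24 tested genes of microRNA processing and Argonaute proteins (29 listed), 15 rose and 4 fell in pull-down, where 73.8% of all features were called and 37.7% were called higher, with a median log2 change of 0.614 against 0.0209 over all features. Ago4, an Argonaute protein, rose by 1.62 ± 0.234 (edgeR adjusted p = 4.24e-05), Tnrc6a, a scaffold of the silencing complex, by 1.43 ± 0.099 (adjusted p = 8.19e-08) and Tut4, an enzyme that adds uridines to microRNA precursors, by 1.61 ± 0.112 (adjusted p = 8.57e-08). Prkra, a partner of Dicer1, fell (−1.93 ± 0.185, adjusted p = 1.2e-06). In kidney mRNA pull-down the median change of this list was 0.755, against 0.0119 over all features, so the rise was not particular to liver.

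Of 13 liver-enriched transcription factors, all tested, 10 rose and 1 fell in pull-down, with a median of 1.32 against the same background. Cebpa rose by 1.68 ± 0.138 (edgeR adjusted p = 3.29e-07), Foxa3 by 1.54 ± 0.1 and Prox1 by 1.53 ± 0.0796, and Onecut1 was lower at −0.894 ± 0.239 (adjusted p = 0.00447). In kidney mRNA pull-down, where 8 of the 13 were tested, the median was 0.804 against 0.0119 over all features. On high fat in liver mRNA input 2 of the 13 rose and 2 fell, with a median of −0.0777 against −0.0593 over all features. There 8.87% of features were called higher and 13.6% lower. Foxa1 rose by 1.08 ± 0.212 (edgeR adjusted p = 0.00344) and Onecut2 by 0.555 ± 0.133, and Hnf4a was 1 of the 2 that fell (−0.45 ± 0.137, adjusted p = 0.0332). The call of Hnf4a was lost without any 1 input library other than low-fat input 1 (−0.45 to −0.32).

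Described targets of miR-122 were lower in liver than in kidney input in 17 of 18 tested genes, with a median log2 difference of −2.02 against −0.0498 over all features, where 33.5% of features were called lower. Igf1r, a growth factor receptor, stood at −5.52 ± 0.176 (edgeR adjusted p = 2.68e-17), Pkm, a glycolytic enzyme, at −3.28 ± 0.277 and Aldoa, another, at −2.83 ± 0.189, while Hfe2, an iron regulator, was higher in liver at 10.9 ± 0.368 (adjusted p = 1.37e-13). In liver pull-down 10 of 17 tested targets rose and 3 fell, beside 73.8% of all features called and 37.7% called higher. On high fat in input 1 rose (Tmed3, 1.23 ± 0.197, adjusted p = 0.00111) and 3 fell (Slc35a4 at −1.32 ± 0.268, Aldoa at −1.29 ± 0.202 and Hfe2 at −0.818 ± 0.193). The call of Hfe2 was lost without high-fat input 1, high-fat input 2 or low-fat input 3 (−0.67, −0.67 and −0.66). The median of the 17 in that diet comparison was −0.783, against −0.0593 over all features, with 13.6% of features called lower. In pull-down 2 of the 17 rose on high fat and 0 fell, where 5.95% of features were called. Their median there was 0.00246, against −0.011 over all features.

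Described targets of miR-192 and miR-148a gave smaller groups. On high fat in input 3 of 8 tested miR-192 targets rose and none fell: Cul5, a ubiquitin ligase scaffold (0.475 ± 0.116, edgeR adjusted p = 0.0118), Mdm2, the p53 ligase (0.438 ± 0.142, adjusted p = 0.0425), and Xiap, an inhibitor of cell death (0.418 ± 0.109, adjusted p = 0.0163). Of 6 tested miR-148a targets 1 rose and 2 fell, with a median log2 change of −0.482 against −0.0593 over all features. Cdkn1b, a cell cycle inhibitor, rose by 0.795 ± 0.183 (edgeR adjusted p = 0.00854), and Bcl2l11, a cell death factor, was 1 of the 2 that fell (−0.715 ± 0.208, adjusted p = 0.0266). Mdm2 lost its call without high-fat input 2, high-fat input 3 or low-fat input 2 (0.42, 0.47 and 0.51), and Bcl2l11 without any 1 input library other than low-fat input 1 (−0.69 to −0.61). Scaled to library totals alone, Cul5 and Xiap were not called (0.44 and 0.38), and in a fit to the input groups alone neither they nor Cdkn1b were (0.49, 0.43 and 0.81). In the same comparison 8.87% of all features were called higher and 13.6% lower. In pull-down on high fat 0 rose and 1 fell in each of these 2 lists, where 5.95% of features were called. Against kidney input, liver input was higher for 4 and lower for 2 of 8 tested miR-192 targets. For 6 tested miR-148a targets it was higher for 3 and lower for 2, where 62.9% of features were called.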

How the data were processed

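RNA of liver, kidney, plasma and VsWAT was sequenced with the CATS small RNA kit for all libraries, per the labels. The authors deposited 1 file of raw read counts per library; per the submitters' processing notes they used STAR, HTSeq and the build mm10. For versions, annotation release, strand setting and multiply matching reads the answer is "not given in the sources used here". Overlapping genes may therefore share reads. A file has 55273 features (54838 Ensembl and 435 tRNA genes), of which 54723 matched a symbol and 38044 a RefSeq biotype (GRCm38.p6). The labels put the 59 libraries in 22 groups and 6 sets.

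Tests on counts used edgeR 4.0.16 (R 4.3.3, limma 3.58.1) with TMM, filterByExpr by group (minimum count 10, total 15), a mean for each group and quasi-likelihood F tests, within each set or, between tissues, in 1 model of all small RNA or all mRNA libraries. Adjusted p is the Benjamini-Hochberg value over all tested features, called at 0.05, and the SE is the log2 change over the square root of F. Contrasts without a named diet average both. The fit was tested on simulated data. Shares and ratios used two-sided exact permutation tests. CPM is a count over the library total, times 1000000, and likeness used log2 CPM with a prior count of 2. A count of 0 was bounded by 3 counts. Without molecular identifiers, bounds cover counting error only.

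Named genes are the 3 members, their seed and cluster relatives, genes within 20 kb, the 3 microRNA and 3 other genes most like each member, and up to 4 called genes of each list per direction, of which a part is printed and some are not reported here. Mir6236, Mir6239, Mir6240, Alb, the let-7 and mitochondrial tRNA genes and the ratios were picked with their values already known. The members and lists were chosen with earlier results of these data known. Same-numbered libraries deviated together (r over 0.1 in all 3 pairs) between diets in liver mRNA pull-down (0.186 to 0.219) and between fractions in low-fat VsWAT (0.307 to 0.380), but not in high-fat VsWAT (0.051 to 0.232). Alternatives were other scalings and filters, DESeq2 1.42.0, fits to the groups compared or to microRNA genes alone, a replicate block and leaving out each library. Where that left 1 library in a group, it was assumed to vary like the others.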

Additional observations from a re-analysis of the deposited data

Results flagged for a closer look

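In liver mRNA the diet change of Mir122 differed between pull-down and input by log2 −3.80 ± 0.57 (SE, edgeR adjusted p = 0.0154), an interaction tested in 1 model. It was not called with the replicate block (−3.83, adjusted p = 0.128), with close pairs summed (−3.70, adjusted p = 0.117) or in 3 of 12 fits that left out 1 library (high-fat pull-down 1, −3.55, high-fat pull-down 2, −3.94, and low-fat pull-down 3, −3.66). All 3 high-fat input libraries lay above all 3 low-fat ones, at 28.2 to 48.2 CPM against 0.694 to 2.97 CPM, and pull-down also did not overlap, at 73.4 to 137.4 CPM on high fat and 50.0 to 70.5 CPM on low fat.

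For Mir192 the pull-down change differed between plasma and liver by log2 3.28 ± 0.89 (SE, edgeR adjusted p = 0.00487), also tested as an interaction, and was called with each of the 19 libraries left out in turn (2.82 to 4.16). It was not called against microRNA genes alone (1.56, adjusted p = 0.303) or without Mir6236, Mir6239 and Mir6240 among them (1.81, adjusted p = 0.217), and the median over all features was −2.54. Pull-down exceeded input in plasma, at 324.0 to 806.8 CPM against 45.0 to 133.4 CPM, and lay below input in liver, at 12.2 to 17.3 CPM against 46.5 to 136.6 CPM.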

How the results depend on the processing

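The alternatives named as without Mir6236, Mir6239 and Mir6240 (with or without Mir122), the bounds by diet and library, the ratios' leave-one-out and the summed close pairs beyond 1 comparison were chosen after seeing the data. For pull-down against input in liver small RNA, Mir122 was at −0.019 with microRNA genes alone and 0.63 without those 3 genes, where Mir192 was at −0.066. In VsWAT Mir122 was at −1.39 with no filter, −1.52 with the replicate block, and 1.01 and 1.19 in the 2 microRNA fits. In plasma Mir122 was at 0.79 with library totals. In liver mRNA the Mir122 diet difference in pull-down passed with no filter (0.82) and in the groups alone (0.82), and its difference from input was lost with the replicate block (−3.83) and summed pairs (−3.70). Over Mir122 and the listed genes, summing those pairs ended the call of 12 liver mRNA results and left 51 as they were. The liver small RNA diet changes in input, none called, turned sign for Mir122 with library totals (−0.10) and microRNA genes alone (−0.048), and for Mir148a in these (−0.12 and −0.10) and with the replicate block (−0.0051). With the block, the plasma input diet change of Mir192 was 0.14.

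Between tissues, plasma against liver input of Mir148a was called in the microRNA fits (−3.07 and −3.25), and that of Mir192 was −0.073 with library totals and −1.54 and −1.53 in the microRNA fits. Plasma against VsWAT input of Mir148a was −0.016 with library totals and −0.60 and −1.16 in the microRNA fits. The pull-down change of Mir192 in liver minus VsWAT was called by DESeq2 (−3.18). In plasma minus liver, Mir122 was at −1.11 and −0.65 and Mir192 at 1.56 and 1.81 in the microRNA fits, neither called for Mir192. Without the 3 genes in the total, the share differences of pull-down against input were 8.15, −0.532 and −0.646 percentage points for Mir122, Mir192 and Mir148a in liver and −0.324 for Mir148a in VsWAT, all called, and the uncalled diet differences in input turned to 1.57 for Mir122 in liver, 0.0054 for Mir192 in VsWAT and −0.115 for Mir192 in plasma. With Mir122 also left out, Mir148a was called in liver (−2.25) and VsWAT (−0.328), and the uncalled diet differences were 0.0784 for Mir148a in liver, 0.0063 for Mir192 in VsWAT and −0.0682 for Mir192 in plasma. The cause was not tested for any of these.

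Leaving out each library gave −4.61 to −3.38 for the Mir122 diet interaction in liver mRNA, −2.19 to −0.85 for Mir122 in VsWAT pull-down, and −0.65 to 0.65 for Mir192 in plasma pull-down. Input diet ranges were −0.77 to 0.47 (Mir122), −1.04 to 0.23 (Mir192) and −0.59 to 0.41 (Mir148a) in liver, −0.46 to 1.46 (Mir122) and −2.15 to 0.085 (Mir148a) in VsWAT, and −0.97 to 1.47 (Mir192) in plasma. Plasma against liver input ran from −0.22 to 1.22 (Mir192) and −5.40 to −0.21 (Mir148a), plasma against VsWAT from −2.77 to 2.70 (Mir148a), and the pull-down change of Mir122 in plasma minus liver from −0.76 to 1.195. Mir192 per 1000 Mir122 in VsWAT pull-down against input differed by −1.97 to 98.03. Share differences ran from −4.66 to 0.136 (Mir122, liver diet), −0.0363 to 0.149 (Mir122, VsWAT diet), −0.0095 to 0.0036 (Mir192, VsWAT diet) and −0.740 to 0.754 (Mir122, plasma pull-down). Other same-numbered pairs did not meet the threshold for pairing, which groups sharing only 2 numbers could not meet. Between fractions of liver small RNA, r was 0.198 and 0.160 on low fat and 0.032 to 0.273 on high fat. Pairing there is therefore open, and the share and ratio tests took no account of it. Crossing the numbers in plasma input called 0 of 3469 features for diet by edgeR (1 at an unadjusted p under 0.05).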
